A study of Mus musculus with 6 samples.

Results

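The GIMAP genes (GTPases of immunity-associated proteins) were examined as a family in activated mouse B cells with and without the RNA-binding protein hnRNPL. The 8 members *Gimap1*, *Gimap3*, *Gimap4*, *Gimap5*, *Gimap6*, *Gimap7*, *Gimap8* and *Gimap9* were taken by gene name from a table of 55421 genes. All 8 passed the filter on low values, a mean of 10 normalized counts over the libraries, and were among the 17640 genes tested. Splenic B cells were activated ex vivo for 24 h with LPS (5 μg/ml), a bacterial lipopolysaccharide that signals through a Toll-like receptor, and IL-4 (5 ng/ml), the cytokine that directs switching to IgG1. Polyadenylated RNA was sequenced for 3 control mice with CD21-cre (hereafter WT) and 3 mice with hnRNPL F/F CD21-cre (hereafter hnRNPL-deficient). Both groups carried the cre transgene, driven by the promoter of the complement receptor gene *Cr2* in mature B cells, and the Rosa mT/mG reporter, and according to the study's methods GFP+ cells, in which cre had been active, were sorted. The labels do not give the age or sex of the mice. Per the study's methods, all mice had the C57BL6/J background, both sexes were used and only a minimum age was set. Values are normalized counts, that is, reads per gene divided by the size factor of the library.

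GIMAP proteins are GTP-binding proteins found mostly in lymphocytes. They share one GTPase domain fold, and several are anchored in the membranes of the endoplasmic reticulum, Golgi, lysosomes, mitochondria or lipid droplets. They are best known for their roles in lymphocyte survival, since animals without *Gimap5* or *Gimap1* lose mature lymphocytes, and their genes lie together in 1 cluster in mammals. hnRNPL binds CA-rich RNA and regulates alternative splicing and the fate of transcripts.

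In GRCm38 the 8 genes lie on chromosome 6 between 48647234 and 48770851, with *Gimap8* first, then *Gimap9*, *Gimap4*, *Gimap6*, *Gimap7*, *Gimap1*, *Gimap5* and *Gimap3*. *Gimap6* and *Gimap3* are on the minus strand and the others on the plus strand. The GTP-binding loop (P-loop) is a part of the GTPase domain, and the codons around it are shown for each gene, read from GENCODE coding sequences. A match to its pattern does not by itself mark a GTPase. The 8 codons of the pattern (G, 4 of any residue, G, K, then S or T) are in capitals, 5′ to 3′ on the coding strand.
Gimap8, loop 1 (chr6:48650247-48650288, plus strand): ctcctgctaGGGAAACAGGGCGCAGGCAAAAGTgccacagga
Gimap8, loop 2 (chr6:48656110-48656151, plus strand): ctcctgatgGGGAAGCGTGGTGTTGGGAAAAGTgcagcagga
Gimap8, loop 3 (chr6:48658737-48658778, plus strand): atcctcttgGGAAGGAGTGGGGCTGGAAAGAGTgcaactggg
Gimap9 (chr6:48677514-48677555, plus strand): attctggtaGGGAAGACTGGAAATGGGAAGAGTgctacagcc
Gimap4 (chr6:48690412-48690453, plus strand): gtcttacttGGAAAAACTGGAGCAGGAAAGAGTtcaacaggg
Gimap6 (chr6:48702741-48702782, minus strand): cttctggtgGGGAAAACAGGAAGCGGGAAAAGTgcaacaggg
Gimap7 (chr6:48723515-48723556, plus strand): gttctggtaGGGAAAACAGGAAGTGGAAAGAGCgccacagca
Gimap1 (chr6:48742543-48742584, plus strand): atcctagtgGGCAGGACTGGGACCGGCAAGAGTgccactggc
Gimap5 (chr6:48752585-48752626, plus strand): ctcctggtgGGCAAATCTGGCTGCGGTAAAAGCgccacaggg
Gimap3 (chr6:48765878-48765919, minus strand): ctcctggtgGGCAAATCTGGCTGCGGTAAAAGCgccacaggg

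*Gimap8* held 3 such loops, and each of the others held 1. *Gimap8* was also the longest, with 688 codons against 291 to 328 in the other 7. The printed stretches of *Gimap3* and *Gimap5* were the same at every base. Over their whole coding sequences these 2 genes shared 88.8% of aligned bases, while the next closest pairs, *Gimap1* with *Gimap6* and *Gimap7* with *Gimap9*, shared 65.7% and 65.1%. Reads could therefore have been divided between *Gimap3* and *Gimap5*, but only 1.65% of the 100-base stretches of *Gimap3* transcripts and 0.966% of those of *Gimap5* occurred in the other gene. For *Gimap1*, 28.3% of its 100-base stretches occurred in the antisense gene *Gimap1os*, which the authors' counting separated by strand.

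The 250 bases before the RefSeq start are shown for the 4 members whose levels passed the test described below, *Gimap4*, *Gimap7*, *Gimap1* and *Gimap3* (GRCm38.p6, 5′ to 3′ on the strand of the gene). Capitals mark a match to TGTGGT, the core letters of RUNX sites, or to GTAAACA, the core letters of forkhead sites, on either strand.
Gimap4 (chr6:48684328-48684577, plus strand): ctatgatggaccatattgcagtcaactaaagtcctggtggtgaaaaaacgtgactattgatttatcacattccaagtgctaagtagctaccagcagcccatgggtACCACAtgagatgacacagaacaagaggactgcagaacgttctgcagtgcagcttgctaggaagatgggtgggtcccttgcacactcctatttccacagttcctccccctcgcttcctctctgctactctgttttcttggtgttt
Gimap7 (chr6:48718371-48718620, plus strand): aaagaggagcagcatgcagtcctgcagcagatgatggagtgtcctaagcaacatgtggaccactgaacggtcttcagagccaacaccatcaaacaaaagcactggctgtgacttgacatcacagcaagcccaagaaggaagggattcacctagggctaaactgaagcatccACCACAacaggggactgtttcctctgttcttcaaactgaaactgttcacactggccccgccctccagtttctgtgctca
Gimap1 (chr6:48738797-48739046, plus strand): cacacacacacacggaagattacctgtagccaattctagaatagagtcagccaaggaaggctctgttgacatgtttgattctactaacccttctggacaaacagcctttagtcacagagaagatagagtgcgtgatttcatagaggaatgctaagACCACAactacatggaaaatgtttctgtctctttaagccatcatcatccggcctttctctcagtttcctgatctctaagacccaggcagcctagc
Gimap3 (chr6:48770852-48771101, minus strand): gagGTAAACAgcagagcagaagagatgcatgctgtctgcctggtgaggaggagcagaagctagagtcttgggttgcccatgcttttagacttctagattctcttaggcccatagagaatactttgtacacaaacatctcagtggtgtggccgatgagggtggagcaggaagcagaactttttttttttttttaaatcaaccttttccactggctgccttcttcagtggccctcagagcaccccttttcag

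The RUNX letters occurred in the windows of *Gimap4*, *Gimap7* and *Gimap1*, and in 16.8% of all 32851 RefSeq promoter windows, each 300 bases long with 50 bases past the start. The forkhead letters occurred in the window of *Gimap3* and in 3.65% of all windows. The other 5 windows, of *Gimap8* (2 windows), *Gimap9*, *Gimap6* and *Gimap5*, held neither. The letters CACGTG (E-box) and CCGGAAG (ETS) were in none of the 9 windows of the family, against 7.15% and 8.86% of all windows. A match of letters is not evidence of binding.

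Reads on genes numbered between 40395186 (hnRNPL-deficient library 3) and 75180749 (WT library 3) per library. The targeted gene, *Hnrnpl*, had between 24174 and 25580 normalized counts in WT and between 1297 and 2178 in hnRNPL-deficient cells, whose mean was 6.74% of the WT mean. *Xist*, a transcript of female cells, was at 98219 or above in 1 library of each group and at 7.21 or below in the other 4. Adding *Xist* as a term changed the call of no member. Members of the family had between 489 and 38638 reads per library, which puts counting error at 4.52% or less.

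All members were expressed in activated B cells. The make-up of the family, given below as shares that were not tested, differed between the groups. *Gimap3*, *Gimap7* and *Gimap1* were higher, *Gimap4* was lower, and the other 4 members did not pass the test. Genes were called at a limma adjusted p under 0.1 (Benjamini-Hochberg over the 17640 genes) and a fold change of at least 1.5, the thresholds of the study. Of the 8 members, 2 (*Gimap3* and *Gimap7*) were called higher and 0 lower, against 7.28% of all tested genes called higher and 4.08% called lower. Whatever the fold, 3 members passed the adjusted p in the higher direction and 1 in the lower direction, against 10.0% and 7.97% of all genes. The median log2 fold change was 0.13 over the members and -0.03 over all genes. Fold changes are differences of mean log2(normalized count + 1), hnRNPL-deficient minus WT, and are given with their standard error (SE).

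**Figure D1:**
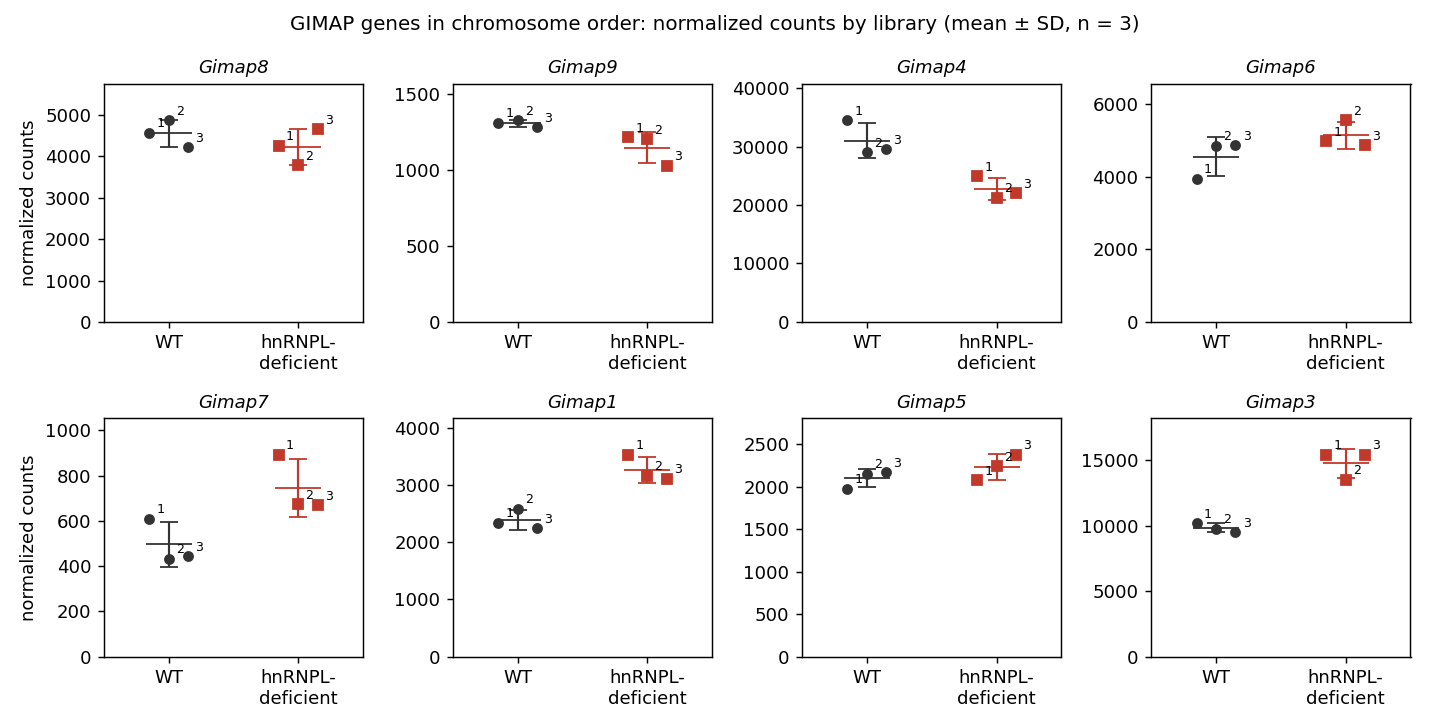
Normalized counts (y axis, from 0, a separate scale per gene) of the 8 GIMAP genes in the WT (black circles) and hnRNPL-deficient (red squares) libraries, numbered 1 to 3, with mean ± SD (n = 3). The groups do not overlap for *Gimap4* and *Gimap9*, lower in hnRNPL-deficient cells, or for *Gimap6*, *Gimap7*, *Gimap1* and *Gimap3*, higher in them.

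*Gimap3* encodes a membrane-anchored GIMAP that in mice influences the segregation of mitochondrial DNA; the human counterpart is a pseudogene. It had 10202, 9775 and 9519 normalized counts in WT libraries 1, 2 and 3. In hnRNPL-deficient libraries 1, 2 and 3 it had 15423, 13505 and 15428. Every hnRNPL-deficient library was thus above every WT library. The means were 9832 ± 345 and 14785 ± 1109 (SD, n = 3 mice each), a rise of 50.4%. The log2 fold change was 0.59 (SE 0.0947, 95% interval 0.37 to 0.80) with an adjusted p of 0.00718 from limma. That value lies just past the 1.5-fold minimum, which is 0.58 on this scale. *Gimap3* passed the adjusted p without each of the 6 libraries in turn, but its fold change stayed at or above the minimum in only 2 of those 6 fits, with log2 values from 0.55 to 0.65. Among all tested genes, 12.6% had a higher fold change.

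*Gimap5*, the gene most like *Gimap3* in sequence, is needed for the survival of T cells and other lymphocytes. WT libraries had 1975, 2151 and 2171 normalized counts and hnRNPL-deficient libraries 2074, 2237 and 2375. These ranges overlapped. Its log2 fold change was 0.09 (SE 0.102, 95% interval -0.15 to 0.32, limma adjusted p = 0.626), so a change of the size of *Gimap3* lies outside its interval. The ratio of *Gimap3* to *Gimap5* in the same library was 5.17, 4.54 and 4.38 in WT and 7.43, 6.04 and 6.50 in hnRNPL-deficient cells. The ratio was higher in 3 of 3 hnRNPL-deficient libraries than in any WT library, by 0.50 on the log2 scale (SE 0.114). The exact two-sided permutation test gave p = 0.1, the smallest that 3 against 3 allows.

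*Gimap1*, which mature B and T cells need in order to persist, lies next to *Gimap5*. Its values were 2340, 2587 and 2241 in WT and 3529, 3161 and 3111 in hnRNPL-deficient cells. The groups did not overlap, and the mean rose by 36.7%, from 2389 ± 178 to 3267 ± 228 (SD, n = 3 each). The log2 fold change of 0.45 (SE 0.104, limma adjusted p = 0.0286) passed the p but stayed under the 1.5-fold minimum. Without WT library 3 or hnRNPL-deficient library 1 the adjusted p was 0.118 and 0.101. The overlap with *Gm28053*, a read-through gene model, covered 6.44% of the exon bases of *Gimap1*.

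*Gimap7*, whose product has been reported to stimulate GTP hydrolysis by other GIMAPs and to sit on lipid droplets, was the least expressed member. It had 610, 432 and 444 normalized counts in WT and 893, 673 and 670 in hnRNPL-deficient cells. The lowest hnRNPL-deficient value exceeded the highest WT value, WT library 1, by less than the spread within either group. The means were 496 ± 99.6 and 745 ± 127 (SD, n = 3 each), a rise of 50.4%, and the log2 fold change was 0.59 (SE 0.186, 95% interval 0.17 to 1.02, limma adjusted p = 0.0771). The call did not hold without any of 5 of the 6 libraries. The adjusted p was 0.208 and 0.220 without WT library 2 or 3, and 0.194, 0.113 and 0.102 without hnRNPL-deficient library 1, 2 or 3, whereas it was 0.0374 without WT library 1. Its 489 to 990 reads per library were the fewest of the 8 members.

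*Gimap9*, the member closest to *Gimap7* in sequence, had 1311, 1331 and 1282 normalized counts in WT and 1215, 1202 and 1028 in hnRNPL-deficient cells. All 3 hnRNPL-deficient values were below the WT values, yet the log2 fold change of -0.19 (SE 0.113, 95% interval -0.45 to 0.07, limma adjusted p = 0.317) did not pass the test. The ratio of *Gimap7* to *Gimap9* was 0.465, 0.325 and 0.347 in WT and 0.734, 0.560 and 0.652 in hnRNPL-deficient libraries. It was higher in 3 of 3 hnRNPL-deficient libraries, by 0.78 on the log2 scale (SE 0.196, exact two-sided permutation p = 0.1, the smallest possible).

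*Gimap4* has been reported to promote the death of T cells and to act in cytokine secretion, and it was by far the most abundant member. Its WT values were 34575, 29042 and 29548 normalized counts, and its hnRNPL-deficient values were 24912, 21229 and 22041. The groups did not overlap. The mean fell by 26.8%, from 31055 ± 3059 to 22728 ± 1935 (SD, n = 3 each). The log2 fold change was -0.45 (SE 0.112, 95% interval -0.70 to -0.19, limma adjusted p = 0.0367), which passed the p and stayed under the 1.5-fold minimum. Without hnRNPL-deficient library 2 the adjusted p was 0.116. Of all tested genes, 86.3% had a higher fold change.

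The ratio of *Gimap4* to *Gimap3* within each library was taken after their opposite changes had been seen. It describes a pair picked for that contrast, and no p-value is given for it. It was 3.39, 2.97 and 3.10 in WT and 1.62, 1.57 and 1.43 in hnRNPL-deficient cells, a difference of -1.04 on the log2 scale (SE 0.0775). The lowest WT ratio was above the highest hnRNPL-deficient ratio, and the spread within each group was small beside the gap. A ratio within a library does not depend on the size factors.

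**Figure D2:**
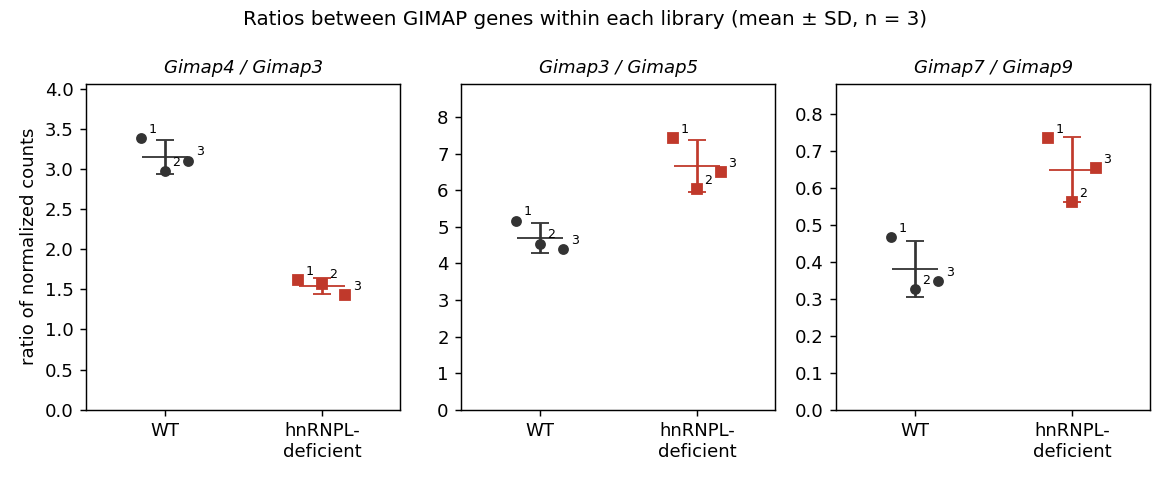
Ratio of normalized counts of *Gimap4* to *Gimap3*, of *Gimap3* to *Gimap5* and of *Gimap7* to *Gimap9* (y axes, from 0) in each WT (black circles) and hnRNPL-deficient (red squares) library, with mean ± SD (n = 3). The *Gimap4* to *Gimap3* ratio was 3.15 ± 0.214 in WT and 1.54 ± 0.0977 in hnRNPL-deficient cells, and no panel shows an overlap.

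*Gimap6* and *Gimap8* did not pass the test. *Gimap6*, which binds the autophagy protein GABARAPL2, had 3940, 4852 and 4860 normalized counts in WT and 4968, 5556 and 4867 in hnRNPL-deficient cells. All hnRNPL-deficient values were above the WT values, but the lowest hnRNPL-deficient value (4867) and the highest WT value (4860) nearly met. The log2 fold change was 0.18 (SE 0.115, 95% interval -0.09 to 0.44, limma adjusted p = 0.360). *Gimap8*, with its 3 GTP-binding loops, had 4571, 4882 and 4228 in WT and 4264, 3786 and 4653 in hnRNPL-deficient cells, and these overlapped. It changed by -0.11 on the log2 scale (SE 0.110, 95% interval -0.36 to 0.14, limma adjusted p = 0.557), with a value of 0.01 in edgeR on the reads of 5 libraries. Over the family, the 3 hnRNPL-deficient values were all above the 3 WT values for 4 members and all below for 2, against 17.7% and 16.3% of all tested genes.

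Levels between genes were compared per kb of exon not shared with another gene on the strand. In WT, *Gimap4* led with 16905 normalized counts per kb, above 98.7% of tested genes, and *Gimap7*, the lowest, was above 52.1% of them. *Gimap4* was followed by *Gimap3* with 3815, *Gimap6* with 1302, *Gimap8* with 1233, *Gimap1* with 831, *Gimap9* with 797, *Gimap5* with 525 and *Gimap7* with 221. *Gimap6* and *Gimap8* overlapped in that order, as did *Gimap1* and *Gimap9*, and the other neighbours were in the same order in all 3 libraries. In hnRNPL-deficient cells *Gimap4* had 12372 normalized counts per kb and *Gimap3* 5737, which brought the ratio of these levels from 4.43 to 2.16. *Gimap1* had 1136, level with *Gimap8* at 1144 and above *Gimap9*. The order of the members by their means was the same in both groups.

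The summed level of the 8 genes per kb was 27522, 24751 and 24613 normalized counts in WT and 25004, 22101 and 23237 in hnRNPL-deficient cells, with overlap between the groups. *Gimap4* made up 65.9 ± 2.30% of that sum in WT (SD, n = 3) and 52.7 ± 1.35% in hnRNPL-deficient cells. The share of *Gimap3* was 14.9 ± 0.479% in WT and 24.5 ± 1.13% in hnRNPL-deficient cells. *Gimap1* went from 3.25 ± 0.347% to 4.85 ± 0.168% and *Gimap7* from 0.857 ± 0.114% to 1.41 ± 0.160%, with no overlap between the groups for any of these 4 genes. The share of *Gimap6* went from 5.12 ± 0.885% to 6.29 ± 0.796% with the nearest values at 5.65% and 5.68%, and the shares of *Gimap8* (4.82 ± 0.449% and 4.88 ± 0.458%), *Gimap9* and *Gimap5* overlapped. Shares of 1 sum depend on each other, so a fall in *Gimap4* raises the shares of the rest. In bulk RNA, fewer cells that express a gene and less RNA per cell cannot be told apart.

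**Figure D3:**
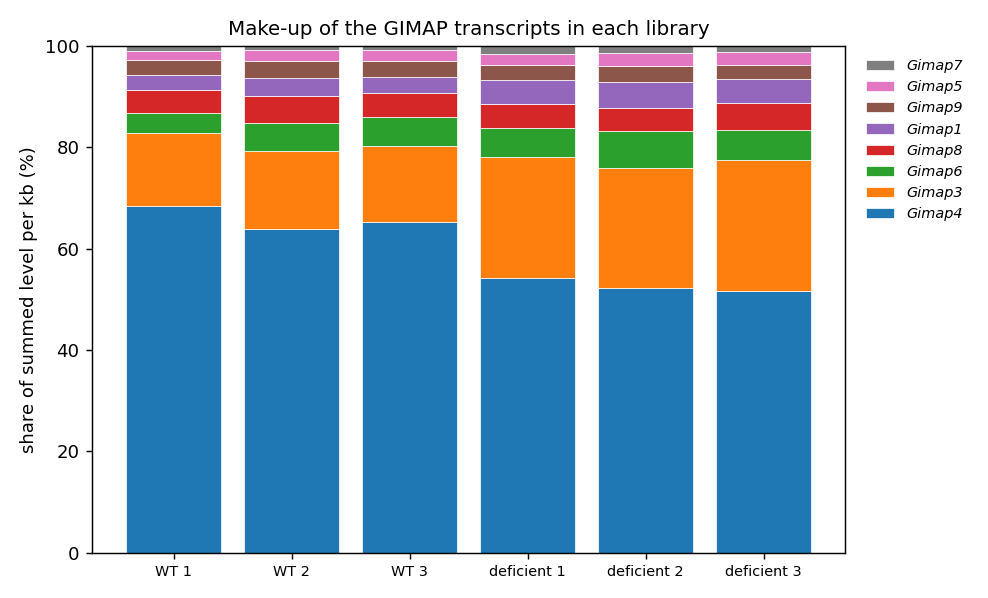
Share of each GIMAP gene (y axis, percent) in the summed level per kb of the 8 genes, 1 bar per library (x axis). *Gimap4* holds between 63.9% and 68.4% of the sum in WT and between 51.6% and 54.2% in hnRNPL-deficient libraries, and *Gimap3* between 14.4% and 15.3% and between 23.7% and 25.8%.

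Along the chromosome, the members on the *Gimap8* side (*Gimap8*, *Gimap9* and *Gimap4*) had log2 fold changes below 0 (*Gimap8* at 0.01 in edgeR) and the members from *Gimap6* to *Gimap3* had log2 fold changes above 0. Those that passed the adjusted p were not next to each other throughout, since *Gimap5* lies between *Gimap1* and *Gimap3*. Noncoding genes inside the cluster did not pass the test. *Gimap1os*, antisense to *Gimap1*, had 4893, 2766 and 3020 normalized counts in WT and 3716, 2789 and 3993 in hnRNPL-deficient cells (log2 fold change 0.01, limma adjusted p = 0.990). The groups overlapped, and the ratio of *Gimap1os* to *Gimap1* overlapped as well, at 1.07 to 2.09 in WT and 0.882 to 1.28 in hnRNPL-deficient cells (exact permutation p = 0.2). The lincRNA *4833403J16Rik* also overlapped (log2 fold change -0.21, adjusted p = 0.635), as did *Gm44226* (-0.51, adjusted p = 0.453). All 3 were highest in WT library 1 and hnRNPL-deficient library 3, the libraries with the fewest reads in their groups, and the part of depth in their values was not tested.

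*Gm28053* shares exon bases with *Gimap7*, *Gimap1* and *Gimap5*, and its values of 10.4, 15.6 and 16.8 normalized counts in WT and 41.5, 22.2 and 30.2 in hnRNPL-deficient cells did not overlap. Its log2 fold change of 1.06 had an adjusted p of 0.108 and was not called. These values are small beside those of the 3 members it overlaps, although reads in the shared bases cannot be assigned.

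Outside the cluster, 1 of 10 neighbouring genes was called, against 7.28% of all tested genes called higher and 4.08% called lower. *Tmem176a*, a transmembrane protein gene 70.1 kb from *Gimap3*, had 333, 384 and 321 normalized counts in WT and 655, 649 and 565 in hnRNPL-deficient cells. Its log2 fold change was 0.85 (SE 0.145, limma adjusted p = 0.00896), larger than that of any GIMAP gene. Its neighbour *Tmem176b*, on the opposite strand and 63.0 kb from *Gimap3*, had 0.26 (adjusted p = 0.260), and the 5 genes on the *Gimap8* side (*Gm7887*, *Lrrc61*, *Repin1*, *Zfp775* and *AI854703*) had between -0.30 and 0.47, with adjusted p values of 0.112 or more. *Malsu1*, *Igf2bp3* and *Tra2a*, farther out on the *Gimap3* side, had 0.17, -0.06 and -0.24 and did not pass.

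**Figure D4:**
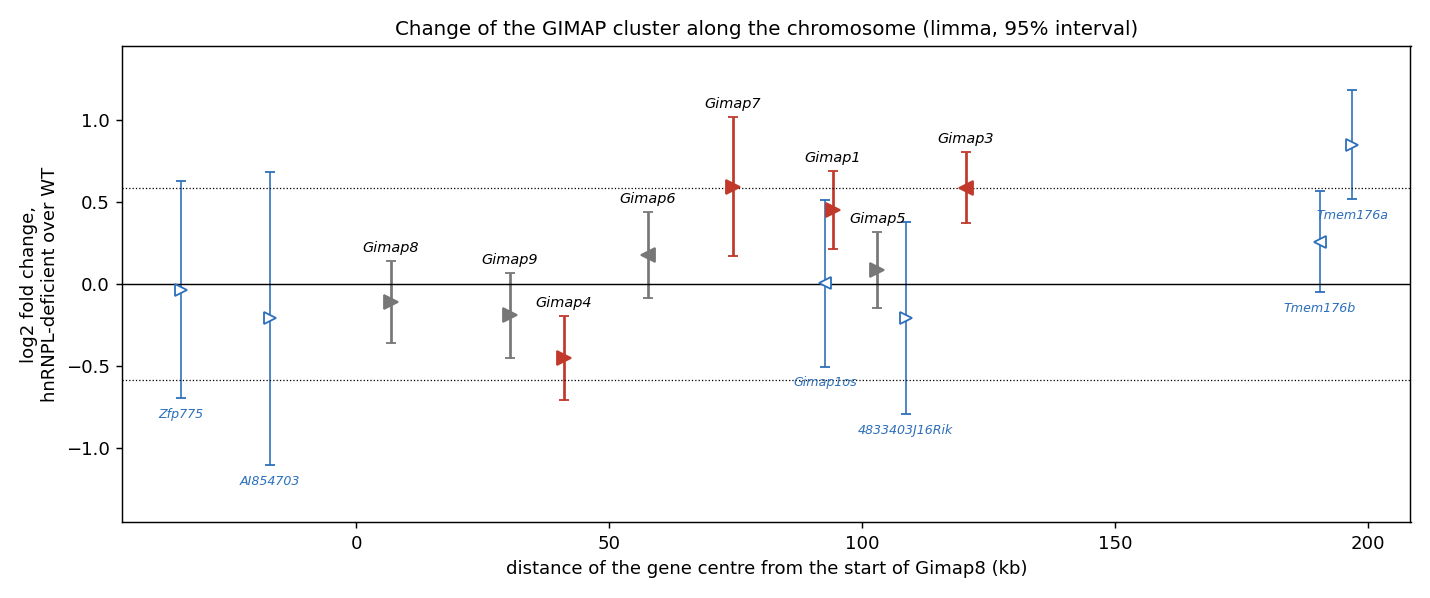
Log2 fold change, hnRNPL-deficient over WT (y axis, with 95% limma intervals), of the 8 GIMAP genes (filled, red where the adjusted p is under 0.1) and of neighbouring or noncoding genes (open blue) against the distance of the gene centre from the start of *Gimap8* in kb. Triangles point along the strand and dotted lines mark 1.5-fold. *Gimap4* lies below 0, and *Gimap7*, *Gimap1* and *Gimap3* lie above it. The open symbols are *Zfp775*, *AI854703*, *Gimap1os*, *4833403J16Rik*, *Tmem176b* and *Tmem176a*. Other genes in or near the cluster, among them *Gm28053*, *Gm44226* and *Repin1*, are not drawn.

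The genes whose profile over the 6 libraries was most like that of *Gimap3* were *Gm14326*, *Phf7* and *Ngly1*, with root mean square differences of 0.0315, 0.0361 and 0.0395 on the log2 scale. For *Gimap7* they were *Vim* (0.0587), *Serf1* (0.0623) and *Slc35g1* (0.0670). Within the family, the closest pairs were *Gimap5* with *Gimap6* (0.112) and *Gimap1* with *Gimap3* (0.114), and the most distant was *Gimap4* with *Gimap7* (0.532). These distances describe 6 libraries in 2 groups.

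GIMAP proteins have been reported to bind members of the BCL2 family, the chaperone HSC70 (*Hspa8*), the kinase GSK3B and ATG8 proteins of autophagosomes. All 13 genes listed for these partners were tested, with 3 called higher, 1 called lower and a median log2 fold change of 0.25. For this list and those below, the shares over all tested genes were 7.28% called higher and 4.08% called lower. *Bcl2l11*, which encodes the death-promoting BIM, had between 3921 and 4389 normalized counts in WT and between 7225 and 7758 in hnRNPL-deficient cells (log2 fold change 0.87, limma adjusted p = 0.0012). *Bax*, the pore-forming effector of mitochondrial apoptosis, had a log2 fold change of 0.82 (adjusted p = 0.0020). The ATG8 gene *Map1lc3a* rose from a low level (1.54, adjusted p = 0.0420), while *Hspa8* fell (-0.70, adjusted p = 0.0176). *Mcl1*, a survival factor, and *Map1lc3b* passed the adjusted p with 0.35 and 0.30, under the fold minimum, and *Gabarapl2*, the partner of GIMAP6, had 0.06 (adjusted p = 0.803). The survival genes *Bcl2* and *Bcl2l1* had 0.33 (adjusted p = 0.103) and -0.10 (adjusted p = 0.727), which did not pass.

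Other families of immune GTPases were set beside the GIMAP genes. The 19 GBP, IRG and MX genes listed are induced by interferons and act against intracellular microbes. Of these, 1 was called higher (*Gbp2b*, 0.65) and 2 lower (*Gbp7*, -0.64, and *Ifi47*, -0.61), with a median log2 fold change of -0.10. Whatever the fold, 2 passed the adjusted p in the higher direction and 5 in the lower, against 10.0% and 7.97% of all tested genes. Of 9 septins tested among 13 listed, GTPases that assemble into filaments, *Sept8* was called higher (1.72, from a mean of 6.24 normalized counts in WT) and *Sept3* (-1.77), *Sept10* (-0.98) and *Sept9* (-0.69) lower, with a median of -0.16.

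Several GIMAP genes have been reported to fall when T cells are activated, so genes of the resting and the activated state were listed as well. Of 16 resting genes, 5 were called higher and 0 lower, against 7.28% and 4.08% of all tested genes. The 5 were the chemokine receptor gene *Ccr7* (0.96), the antiproliferative genes *Tob1* (0.94) and *Btg2* (0.74), the transcription factor gene *Foxo3* (0.89) and *Tsc22d3* (0.65). *Klf3*, *Bach2* and *Slfn2* of the same list passed the adjusted p in the lower direction, with -0.45, -0.35 and -0.47, and *Klf2*, which keeps lymphocytes quiescent, had 0.19 (adjusted p = 0.461). Of 13 activation genes, 3 were called higher, among them *Cd80* (3.57) and *Bhlhe40* (0.67), and 1 lower (the cyclin gene *Ccnd2*, -1.09), with a median of -0.14. Both lists, like the GIMAP genes, held members that passed the adjusted p in each direction.

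**Figure D5:**
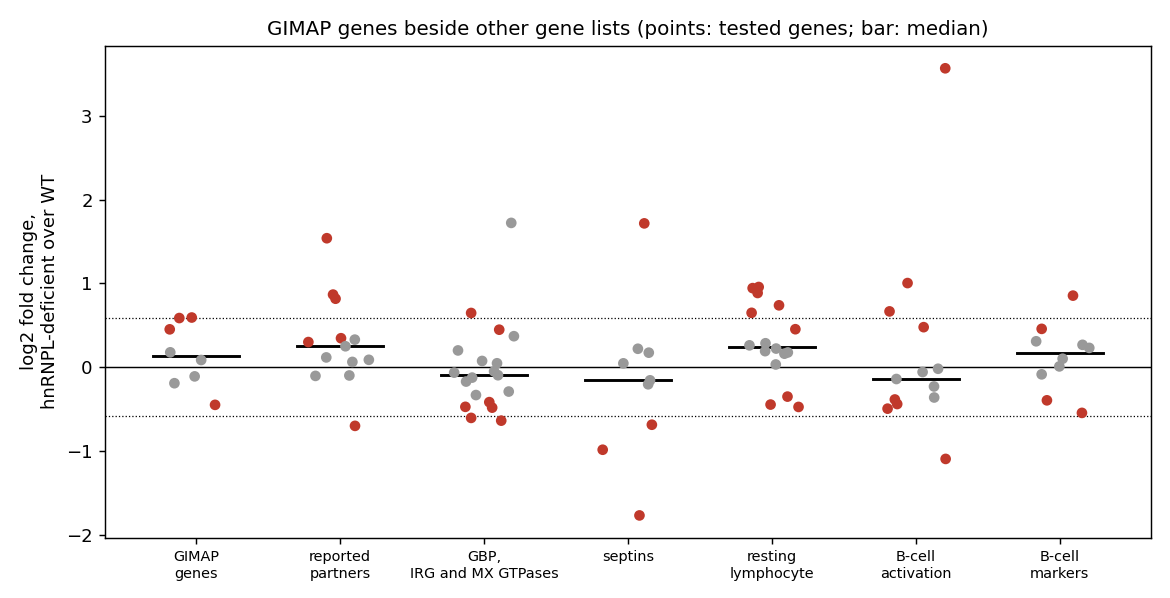
Log2 fold change, hnRNPL-deficient over WT (y axis), of the tested genes of 7 lists (x axis); each point is 1 gene, red where the limma adjusted p is under 0.1, the bar is the median of the list and dotted lines mark 1.5-fold. The GIMAP genes range from -0.45 to 0.59, with a median of 0.13.

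The B-cell label was checked against markers, since GIMAP genes are also abundant in T cells, NK cells and endothelium. The B-cell markers *Cd79a* and *Ms4a1* were at 17288 normalized counts or above in every library, and of 10 B-cell markers 1 was called higher (*Cr2*, 0.85) and 0 lower. Whatever the fold, 2 B-cell markers passed the adjusted p in the higher and 2 in the lower direction, the latter *Cd22* (-0.55, limma adjusted p = 0.0099) and *Ms4a1* (-0.40, limma adjusted p = 0.0988). The T-cell receptor complex genes *Cd3d*, *Cd3e* and *Cd3g* were at 6.92 or below and *Trac* between 13.9 and 32.9. Of 17 T-cell markers 7 were tested and 1 was called lower (*Cd8b1*, from 28.9 to 8.38), and their sum was 1085 to 1185 in WT and 788 to 1009 in hnRNPL-deficient cells. Most of that sum was *Lck*, a kinase gene with a log2 fold change of -0.34 that did not pass the test (limma adjusted p = 0.181), and *Trac* had 0.64 (limma adjusted p = 0.256). NK-cell markers summed to 28.3 to 39.5 in WT and to 46.4 to 93.8 in hnRNPL-deficient cells, without overlap. *Ncr1* was at 0 and *Klrb1c* at 3.03 or below, and 1 of 9 was tested and called higher (*Prf1*, 0.89).

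Single genes of the endothelial and myeloid lists were higher in hnRNPL-deficient cells, while most of each list was near 0 in both groups. Of 10 endothelial markers 3 were tested, *Cdh5* (1.33) and *Egfl7* (1.14) were called higher and *Pecam1*, which B cells also express, passed the adjusted p with 0.53. Their sum was 2664 to 2793 in WT and 3803 to 4512 in hnRNPL-deficient cells, mostly *Pecam1*, and *Kdr* was at 4.11 or below in every library. Of 10 myeloid markers 2 were tested, *Adgre1* was called higher (2.24) and *Itgam* had -0.07 (limma adjusted p = 0.951). Their sum, mostly *Adgre1*, was 261 to 337 in WT and 1241 to 1384 in hnRNPL-deficient cells, with *Lyz2* and *Csf1r* at 6.85 or below. Erythroid markers summed to 17.6 to 38.3 in WT and to 55.0 to 84.8 in hnRNPL-deficient cells (*Hbb-bt* called higher, 1.82). *Alas2* was at 4.11 or below, and of 5 plasma cell markers *Jchain* was called lower (-2.31). The part of these genes, and of the T-cell and NK-cell markers above, in the differences of *Gimap3*, *Gimap7*, *Gimap1* and *Gimap4* was not tested.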

How the data were processed

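The data were RNA-seq libraries of activated B cells, 3 WT and 3 hnRNPL-deficient with 1 mouse each, grouped by the submitters' labels. Per the labels and the study's methods, the authors trimmed reads with fastp 0.23.1, aligned them to mm10 with STAR 2.7.9a, counted them per gene and strand with featureCounts, and deposited the counts divided by DESeq2 (1.38.2) size factors (a signal, often fractional). The deposited table also holds the authors' own comparison (log2 fold changes, a test score and p-values), which was not used. In all 6 libraries the values were whole multiples of the value of 1 read (within 0.01). The automatic test did not read those of hnRNPL-deficient library 2, which therefore entered no count test.

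The main test was limma 3.58.1 (R 4.3.3) with a mean-variance trend on log2(normalized count + 1) where the mean over the 6 libraries reached 10. A call needed 1.5-fold and a p under 0.1 after Benjamini-Hochberg adjustment. Ratios of *Gimap3* to *Gimap5*, of *Gimap7* to *Gimap9* and of *Gimap1os* to *Gimap1* were compared by exact two-sided permutation. Both pairs of members held a called gene. The ratio of *Gimap1* to *Gimap6*, slightly closer in sequence than *Gimap7* and *Gimap9*, was not compared. edgeR 4.0.16 and DESeq2 1.42.0 on the reads of 5 libraries were alternatives, with other pseudocounts, filters, scalings and thresholds, a replicate block and each library left out. Scripts were tested on simulated data. Coordinates, lengths and coding sequences come from GENCODE M21, an earlier release than the authors', and promoters from RefSeq. No protein sequence was used here.

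All members were described. Other genes were named as the targeted gene, cluster neighbours, genes of most similar profile, defining markers, or at most 4 called genes per list with the largest change; *Klf2*, *Klf3*, *Bach2*, *Slfn2*, *Mcl1*, *Map1lc3b*, *Gabarapl2*, *Bcl2*, *Bcl2l1*, *Tsc22d3*, *Pecam1*, *Cd22*, *Lck*, *Itgam* and *Xist* were named after their values were seen. The members and lists were chosen with earlier results of these data known. Some listed genes are not reported here by name.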

Additional observations from a re-analysis of the deposited data

How the results depend on the processing

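The log2 fold changes of *Gimap3* and *Gimap7* lay just past the fold minimum, and the adjusted p of *Gimap7* was near its threshold. The number called higher, 2, became 1 with quantile normalization and with no mean-variance trend (each time without *Gimap7*, at a log2 fold change of 0.54 with adjusted p = 0.104 and of 0.59 with adjusted p = 0.128 from limma), 0 at an adjusted p under 0.05 and 2-fold, and from 0 to 2 in the 6 fits that omitted a single library, with 0 in the absence of the second or the third WT library, or of hnRNPL-deficient library 1 or 3. The number called lower, 0, became 1 with no fold minimum, by construction. *Gimap7* lost its call on the adjusted p alone without hnRNPL-deficient library 2 (0.66) or 3 (0.66), and *Gimap3* on the fold alone in its 4 losses among these fits. Over all genes, the 1284 higher and 719 lower became 610 and 216 at 0.05 and 2-fold. The lower count became 1406 with no fold minimum. With each library left out they ranged from 830 to 1111 higher and from 478 to 696 lower, the lowest of both without WT library 3. Over 21 alternatives *Gimap3* had an adjusted p under 0.1 in 21, with log2 fold changes from 0.55 to 0.72. *Gimap1* and *Gimap4* did so in 19 each, *Gimap7* in 14, and the other 4 members in 0. Among the alternatives, 2 changed only the thresholds and kept the main adjusted p, so members that passed it passed there by construction. *Gimap7*, with a limma adjusted p of 0.0771, did not pass the stricter threshold of 0.05. The sign of *Gimap8* alone turned (0.0059 by edgeR on 5 libraries). Beyond fewer libraries or other thresholds, the cause was not tested.

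The replicate numbers were not taken as a pairing. Same-numbered libraries had deviations from the group means that correlated at 0.43, 0.32 and 0.066, and WT library 3 correlated better with hnRNPL-deficient library 2 (0.31) than with library 3. With the replicate number as a block, 2 members were called higher and 0 lower, and 1755 and 1018 genes over the whole table. In that fit the limma adjusted p of *Gimap7* was 0.00902, against 0.0771 without the block. A figure legend of the study that covers RNA-seq counts gives 2 experiments as their source. The labels do not say which library came from which experiment. The *Xist* term, chosen after the data were seen, gave 2 and 0. The number of mice limits all these tests. An exact test of a single ratio cannot go below 0.1.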
